A study of Mus musculus with 6 samples.

Results

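The 10 genes described here, Map1b, Map2, Mapt, Tubb3, Nefl, Nefm, Prph, Stmn2, Dpysl3 and Gap43, encode the microtubule, neurofilament and growth cone proteins that give neurons their axons and dendrites. They were taken as a named list, which was chosen with earlier results of these data known. Every probe set with 1 of these symbols alone in the platform's annotation was used. This gave 25 of the 45037 probe sets that are not array controls. RNA came from the adrenal medulla of male C57/Bl6 mice, cut out of frozen sections 8 weeks after transverse aortic constriction (TAC, a surgical narrowing of the aorta that puts the heart under pressure load) in 3 animals, or after a sham operation in 3 others. Each array held RNA from both medullae of 1 animal, so the 6 arrays are 6 animals, and the sources used here do not state their ages. The two-cycle 3′ amplification used for all arrays reads mostly the 3′ end of a transcript. Levels are given as log2 intensities and differences as TAC minus sham in log2 units, SE is that of the limma fit (a linear model run over all tested probe sets), and n = 3 arrays per group.

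Chromaffin cells, which release adrenaline and noradrenaline from the medulla, arise from the neural crest like sympathetic neurons and keep much of the neuronal cytoskeleton without forming axons in the intact gland. The medulla also holds some ganglion neurons and nerve fibres, while the cell bodies of its preganglionic nerves lie in the spinal cord. Microtubule-associated proteins stabilise microtubules, neurofilaments set the width of an axon, and stathmins and collapsin response mediators act on microtubules in growing tips. In dissected tissue such as this, fewer cells of a type and less RNA per cell cannot be told apart.

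The neuronal cytoskeleton genes lay lower after TAC than after sham at 15 of 17 tested probe sets (88.2%, against 45.3% of all tested probe sets). None of these differences passed the threshold. The list was chosen with earlier results of these data known, and several of its probe sets can belong to 1 gene. Its shares and medians therefore describe the list and do not test it. A probe set was tested if it reached log2 4 on at least 3 of the 6 arrays, which 17 of the 25 did, covering 9 of the 10 genes. With 1 probe set per gene, the one with the highest mean, 9 of 9 genes had a lower TAC mean, at a median of -0.53, while 41.3% of the 10181 genes measured this way were lower and their median was 0.09. In limma with Benjamini-Hochberg adjustment 0 of the 17 fell under an adjusted p of 0.05, as did 0 of all 18188 (0%), and the 17 adjusted p-values ran from 0.418 to 0.993. At an unadjusted p under 0.05, 2 of the 17 were lower and 0 higher, where 6.94% of all tested probe sets reached that p and 2.29% were lower with it, a share that was 4.78% after cyclic loess scaling and 3.69% with arrays centred on their medians, with 3 of the 17 lower under each. The TAC and sham arrays did not overlap at the same count of 2 probe sets, both lower, against 4.01% of all probe sets that were lower and 9.01% that were higher without overlap. With single arrays left out and the same probe sets kept, the median of the 9 genes ran from -1.04 (without sham 1) through -0.82 (without TAC 2) to -0.44 (without sham 2). All 9 were lower each time except without sham 1, where 8 were, and all 9 were lower under each of the 3 other scalings. With limma's array weights, which put most of the TAC side on TAC 3, 9 of the 17 had an adjusted p under 0.05, all lower, as did 21.6% of all tested probe sets.

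A control signal that depends on RNA length was not equal on the arrays, and the arrays where it was largest also stood apart in part of the values. RNA length itself was not measured, and its part in the values was not tested. Gapdh has control probe sets at either end of its transcript, and their 3′ minus 5′ difference, which grows as RNA is shortened, was 4.71, 3.67 and 3.98 on TAC arrays 1, 2 and 3, against 5.15, 3.08 and 2.88 on sham arrays 1, 2 and 3 (exact 2-sided permutation p = 0.6, where 3 against 3 cannot go below 0.1). TAC 1 and sham 1 therefore stand apart within their groups. Over the tested probe sets they had the lowest medians of their groups, at 6.50, 7.01 and 6.68 after TAC and 6.31, 6.89 and 6.91 after sham. Over all rows of the table they had the highest, with median linear intensities of 10.1, 9.15 and 9.67 after TAC and 10.9, 9.20 and 9.26 after sham. With both arrays numbered 1 left out, the median of the 9 genes was -0.63 and 8 of them were lower, all but Mapt.

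**Figure D1:**
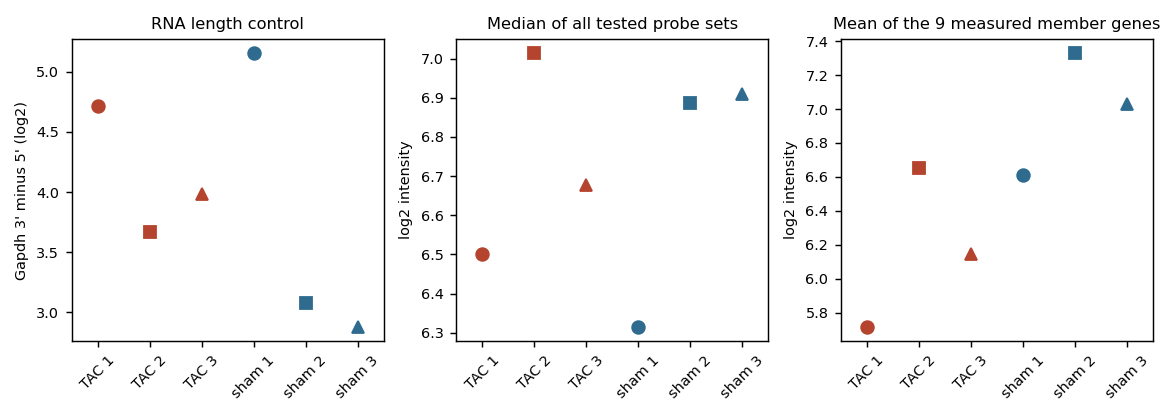
Each point is 1 array (red TAC, blue sham; circle, square and triangle are arrays 1, 2 and 3 of a group), with the Gapdh 3′ minus 5′ difference, the median of all tested probe sets and the mean of the 9 measured genes on log2 axes that do not start at 0. The 2 arrays numbered 1 have the largest Gapdh differences of their groups, 4.71 and 5.15, and the lowest values of their groups in the other panels.

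Map1b and Map2 are the 2 genes with a probe set at which the groups did not overlap, and their sequence just upstream of the annotated gene is shown for that reason. Map1b protein binds microtubules in growing axons, and Map2 protein bundles them in dendrites. The sequences come from RefSeq's mouse promoters (build GRCm38.p6), which hold 4 of the 10 genes, and the bases before the first annotated base of the gene are printed 5′ to 3′ on the gene's strand. Capitals mark the GC box, GGGCGG on either strand, the sequence bound by Sp1-type factors. The first is chr13:99516603-99516852 on the minus strand and the second chr1:66175079-66175201 on the plus strand.
Map1b: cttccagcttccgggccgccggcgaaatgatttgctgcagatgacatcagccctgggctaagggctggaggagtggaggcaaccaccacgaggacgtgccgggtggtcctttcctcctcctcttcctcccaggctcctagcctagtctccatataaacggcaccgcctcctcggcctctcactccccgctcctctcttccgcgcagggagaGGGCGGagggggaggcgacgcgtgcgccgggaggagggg
Map2: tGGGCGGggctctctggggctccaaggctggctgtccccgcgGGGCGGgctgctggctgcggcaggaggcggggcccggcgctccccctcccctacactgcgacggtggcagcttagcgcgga
GC boxes are found once in the 250 bases of Map1b and at 2 places in the 123 bases of Map2. Of 32851 promoters, 32.7% hold one in their first 250 bases and 13.2% in their first 123. These background stretches, used for each motif, were counted from the start of the promoter sequence. Their distance to the gene start can differ from that of the printed bases. The TATA box letters TATAAA (either strand) occur at 1 place in the Map1b stretch and at 0 in that of Map2, against 12.4% and 6.17% of promoters. TGACG, the core of the cyclic AMP response element, searched on both strands, occurs in neither stretch, against 17.8% and 6.66% of promoters.

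Map1b was read by 3 probe sets that did not give the same picture. At 1450397_at, TAC arrays 1, 2 and 3 measured 4.45, 4.35 and 3.89, against 6.56, 5.74 and 5.57 on the sham arrays. Every TAC array was below every sham array there, and the highest TAC value was more than 1 log2 unit below the lowest sham value. The difference was -1.73 ± 0.35 SE (95% interval -2.57 to -0.89, limma adjusted p = 0.418), or 0.302-fold, and it ran from -1.92 to -1.43 when single arrays were left out. The TAC values lay near the filter level, so the size of the difference is less certain than at a brighter probe set, and raising all lower values to log2 4 gave -1.69. It was -2.38 for TAC 1 and TAC 3 against sham 1, the 3 arrays with the larger Gapdh differences, and -1.31 for TAC 2 against sham 2 and sham 3. At 1421851_at, the TAC arrays measured 2.83, 6.89 and 6.25 and the sham arrays 2.99, 4.42 and 6.14. The groups overlapped over their whole range, with both arrays numbered 1 near the floor, and the difference was 0.81 ± 1.27 SE (95% interval -2.29 to 3.90, adjusted p = 0.982). Leaving out TAC 1 made it 2.05 and leaving out TAC 2 made it 0.02. The third probe set, 1421850_at, stayed between 2.20 and 2.33 on all arrays and was not tested.

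Map2 lay lower after TAC at both of its tested probe sets. At 1434194_at, the TAC arrays measured 9.17, 9.63 and 8.96, against 9.66, 10.56 and 10.02 on the sham arrays. The groups did not overlap, although TAC 2 and sham 1 were nearly level, and the difference was -0.83 ± 0.33 SE (95% interval -1.64 to -0.02, limma adjusted p = 0.706), or 0.562-fold. It was -0.60 in the arrays with the larger Gapdh differences and -0.67 in the others. The dimmer 1440699_at had 4.61, 4.26 and 3.55 after TAC and 5.46, 4.37 and 4.40 after sham. Here TAC 1 lay above sham 2 and sham 3, so the groups overlapped (difference -0.60 ± 0.43 SE, adjusted p = 0.931). Without sham 1 that difference was -0.24. The remaining probe sets, 1421327_at and 1421328_at, stayed between 2.22 and 3.38 on all arrays.

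Mapt, which encodes tau, the main microtubule-associated protein of axons, was nearly level between the groups at 1424719_a_at and 1424718_at. At 1424719_a_at, the TAC arrays measured 7.67, 7.57 and 7.59 and the sham arrays 8.06, 7.55 and 7.56. Sham 1 was the highest and the other 5 arrays lay between 7.55 and 7.67 (difference -0.11 ± 0.24 SE, 95% interval -0.71 to 0.48, limma adjusted p = 0.988). The sign turned to 0.054 without sham 1 and to 0.023 without both arrays numbered 1. At 1424718_at the difference was -0.08 ± 0.22 SE and at 1455028_at -0.43 ± 0.40 SE, with adjusted p-values of 0.993 and 0.957. The fourth probe set, 1417885_at, was between 2.09 and 2.17 on all arrays. The intervals at 1424719_a_at and 1424718_at leave out a change of 1 log2 unit in either direction. The interval at 1455028_at (-1.41 to 0.54) is wider and includes a fall of that size. A fall of that size also lies within the interval at the highest-mean probe set of every other measured gene, among them Stmn2 1423280_at, Nefl 1454672_at and Dpysl3 1454613_at.

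Tubb3 is the class III beta tubulin used as a marker of neurons, and its only probe set, 1415978_at, lay close to the filter level. The TAC arrays measured 3.96, 4.37 and 4.10, against 4.60, 4.92 and 4.26 on the sham arrays. The groups overlapped only through TAC 2, which was above sham 3, and the difference was -0.45 ± 0.27 SE (95% interval -1.11 to 0.20, limma adjusted p = 0.882). With values this near the floor, its size is less certain than that of a brighter probe set.

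**Figure D2:**
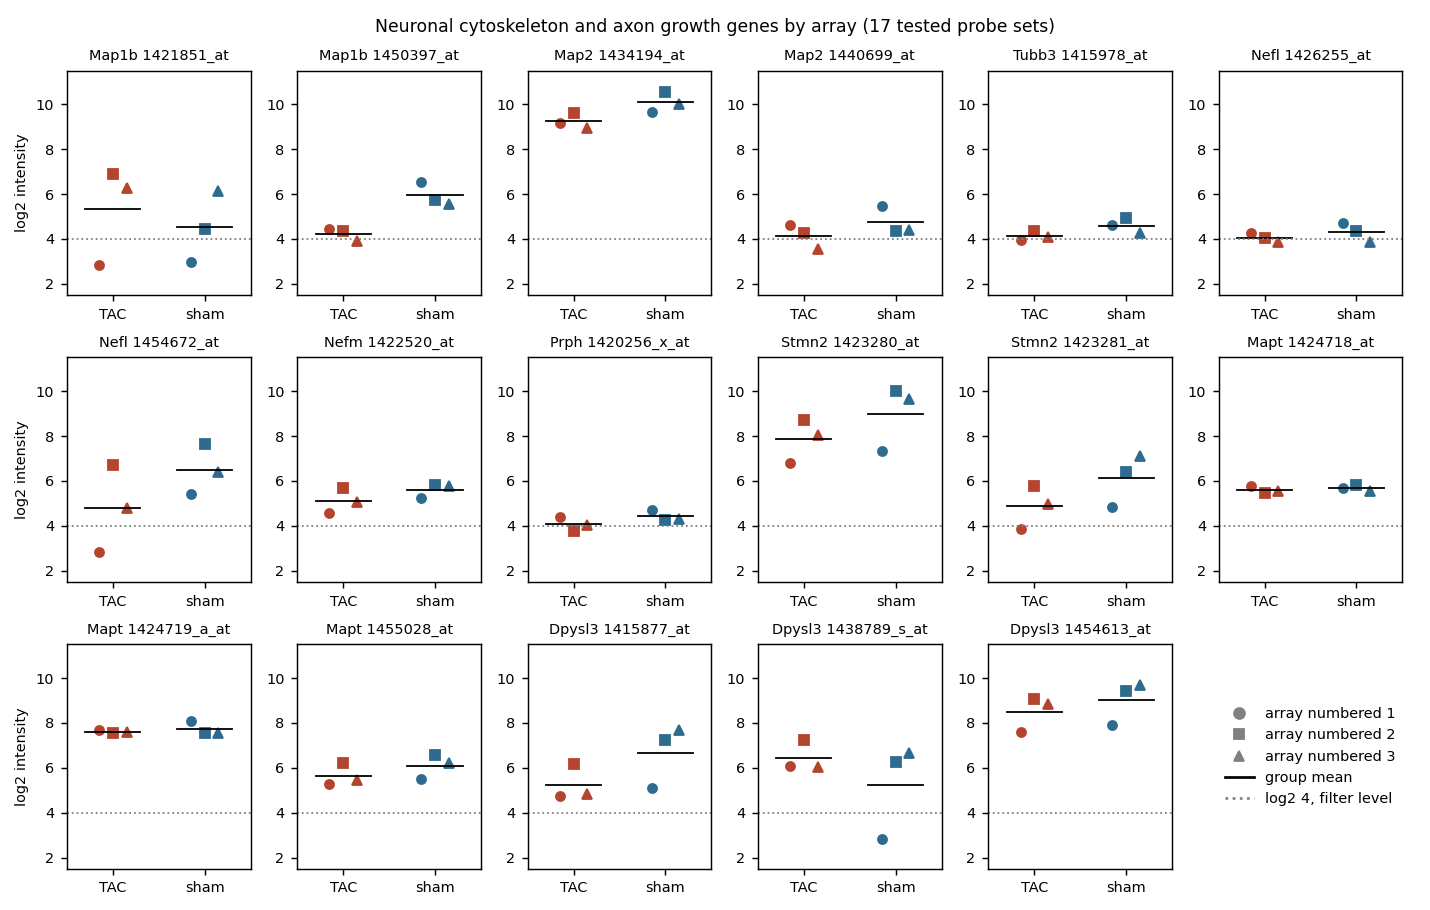
Each panel is 1 tested probe set with its log2 intensity on the 3 TAC arrays (left, red) and the 3 sham arrays (right, blue), black lines for group means and a dotted line at log2 4, the level used as a filter. Only Map1b 1450397_at and Map2 1434194_at have all TAC points below all sham points, and the circles (arrays numbered 1) are the lowest of both groups in 8 of the 17 panels.

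The neurofilament genes Nefl and Nefm had lower TAC means at each tested probe set, with overlap between groups at all of them. Nefl, the light neurofilament subunit, measured 2.83, 6.69 and 4.81 on the TAC arrays and 5.43, 7.63 and 6.41 on the sham arrays at 1454672_at. TAC 2 was above sham 1 and sham 3, and TAC 1 was near the floor. The difference was -1.71 ± 1.06 SE (95% interval -4.28 to 0.86, limma adjusted p = 0.887), and leaving out TAC 1 brought it to -0.74 and leaving out TAC 2 to -2.67. At 1426255_at, Nefl differed by -0.25 ± 0.29 SE (adjusted p = 0.980), with all arrays between 3.85 and 4.70. Nefm, the medium subunit, measured 4.57, 5.70 and 5.05 after TAC and 5.24, 5.82 and 5.78 after sham at 1422520_at. Only TAC 2 reached into the sham range (difference -0.50 ± 0.36 SE, adjusted p = 0.933).

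Prph encodes peripherin, an intermediate filament protein of peripheral neurons. Its 1 tested probe set, 1420256_x_at, carries the suffix (x) given to sets whose probes can bind other transcripts. It measured 4.41, 3.78 and 4.01 on the TAC arrays and 4.71, 4.27 and 4.31 on the sham arrays. TAC 1 lay above sham 2 and sham 3, and the difference was -0.37 ± 0.27 SE (95% interval -1.03 to 0.30, limma adjusted p = 0.934). Of the untested probe sets, 1422530_at reached log2 4 on 2 arrays, with 3.58, 4.02 and 3.81 after TAC and 3.97, 3.97 and 4.996 after sham, and 1449796_at and 1449797_x_at stayed between 2.21 and 3.17.

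The growth cone genes Stmn2 and Dpysl3 differed more between arrays of a group than between the group means at most of their probe sets. Stmn2, a stathmin that releases tubulin from microtubules at growing tips, measured 6.80, 8.71 and 8.06 on the TAC arrays and 7.33, 10.02 and 9.63 on the sham arrays at 1423280_at. The 2 brightest arrays were sham, but TAC 2 and TAC 3 lay above sham 1 (difference -1.14 ± 0.84 SE, 95% interval -3.18 to 0.90, limma adjusted p = 0.934). Its second probe set, 1423281_at, measured 3.84, 5.78 and 4.98 after TAC and 4.84, 6.39 and 7.12 after sham. The arrays fell in nearly the same order there, and the difference was of similar size, -1.25 ± 0.74 SE (adjusted p = 0.881). Without sham 1 the differences were -1.97 and -1.89, and without TAC 1 they were -0.61 and -0.74. They were 0.10 and -0.43 among TAC 1, TAC 3 and sham 1, where the Gapdh differences were larger, and -1.12 and -0.97 among TAC 2, sham 2 and sham 3.

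Dpysl3, a collapsin response mediator of growth cones, was read with both signs. At 1454613_at, its brightest probe set, the TAC arrays measured 7.59, 9.08 and 8.82 and the sham arrays 7.92, 9.44 and 9.71. The array numbered 1 was lowest in both groups, and the difference was -0.53 ± 0.62 SE (95% interval -2.03 to 0.97, limma adjusted p = 0.980). Without TAC 1 that difference was -0.07, and without sham 1 it was -1.08. At 1415877_at, the arrays measured 4.76, 6.17 and 4.83 after TAC and 5.10, 7.23 and 7.70 after sham, a difference of -1.43 ± 0.77 SE (adjusted p = 0.835). At 1438789_s_at, whose suffix (s) marks probes shared by several transcripts, they measured 6.08, 7.24 and 6.02 after TAC and 2.83, 6.24 and 6.66 after sham. The higher TAC mean there (difference 1.20 ± 1.05 SE, adjusted p = 0.951) rests on sham 1, without which it was -0.0072.

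Gap43, a membrane protein of growth cones used as a marker of axon regrowth, did not reach log2 4 on any array. Its single probe set, 1423537_at, measured 3.06, 2.99 and 2.79 on the TAC arrays and 3.05, 3.14 and 3.85 on the sham arrays. Sham 3 was the highest, and no test was made at this level.

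**Figure D3:**
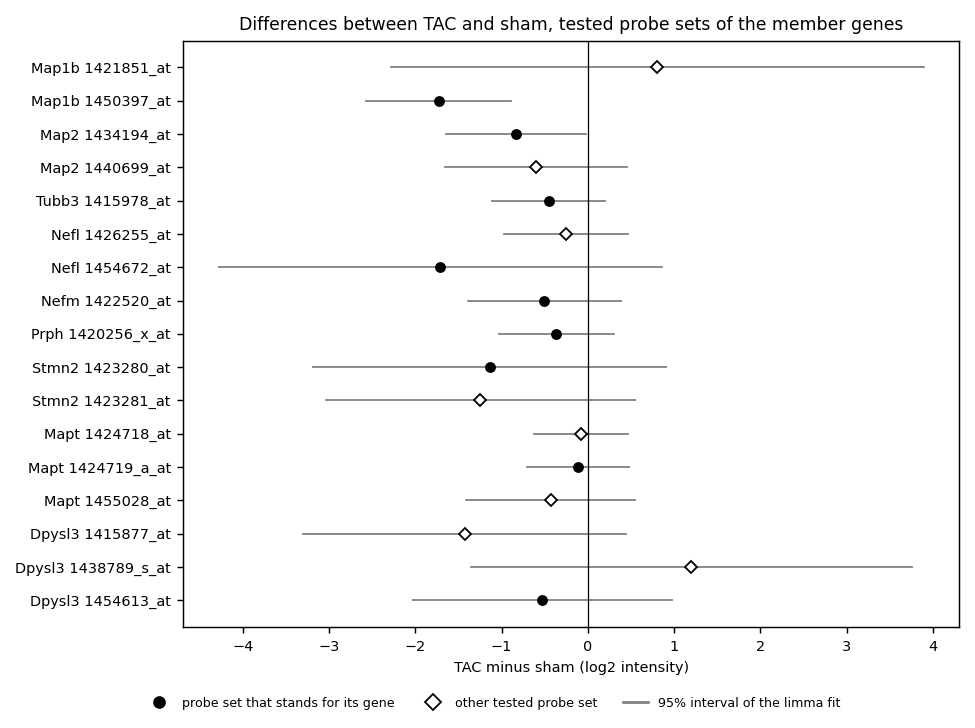
The difference of TAC minus sham in log2 intensity is shown for each of the 17 tested probe sets with its 95% limma interval (lines), filled for the probe set with the highest mean of its gene. Of the 17 intervals 15 include 0, those of Map1b 1450397_at and Map2 1434194_at do not, and the 2 positive values belong to Map1b and Dpysl3.

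The arrays numbered 1 were the lowest of their groups at some probe sets and the highest at others. TAC 1 and sham 1 were both the lowest of their group at 8 of 17 probe sets (47.1%), against 44.1% of all tested probe sets, a share near the background. These were 1 probe set each of Map1b, Nefl, Nefm and Mapt and 2 each of Stmn2 and Dpysl3. At 5 of 17 (29.4%) both arrays were the highest of their group, against 19.9% of all, and these were other probe sets of Map1b, Map2, Nefl and Mapt and the tested one of Prph. Different probe sets of Map1b, Nefl and Mapt thus ran opposite ways over the same arrays. The TAC mean was lower both among the 3 arrays with larger and among the 3 with smaller Gapdh differences at 12 of 17 probe sets (70.6%), against 21.8% of all. These parts do not hold the Gapdh difference equal, since each sets 1 array of one group against 2 of the other. The share describes a list chosen with earlier results known and is not a test. With the Gapdh difference as a covariate, the median of the 9 genes was -0.47 and 0 of the 17 passed the threshold. The median spread between arrays of a group was 0.53 (SD) for the 17 probe sets and 0.51 for all.

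Marker genes of other cells moved beside these values, and their part in the result was not tested. The fibroblast list had 8 of 8 genes measured, 7 of them lower after TAC (median -1.25), and its mean level was 6.38, 7.52 and 7.18 on the TAC arrays and 7.23, 8.55 and 8.48 on the sham arrays. The 8 measured of 11 further neuronal genes were lower at 5 (median -0.29), with mean levels of 8.80, 9.43 and 9.06 after TAC and 8.74, 9.68 and 9.41 after sham. Eno2, the neuronal enolase, was the only one of them without overlap, at 7.80, 8.28 and 7.92 after TAC and 8.30, 8.79 and 8.30 after sham. Of all genes, 2.59% were lower without overlap. The 3 further neuronal genes with higher TAC means were Elavl3, Thy1 and Syt1, with differences of 0.37, 0.23 and 0.02. Chat, Slc5a7 and Slc18a3, which mark cholinergic neurons, stayed below the filter. Sustentacular and Schwann cell genes, which mark the glia around chromaffin cells and axons, were higher at 6 of 7 measured (of 9 listed, median 0.77). Under each of the 3 other scalings 5 were higher. Mean levels of the list were 7.18, 8.32 and 8.00 after TAC and 6.96, 7.42 and 7.69 after sham. The label of the tissue was checked with chromaffin genes such as Th and Dbh, which were bright on every array, at mean levels of 12.65, 13.39 and 13.21 after TAC and 12.76, 13.13 and 12.94 after sham over 8 of 9 genes. Of these 8 chromaffin genes 6 were higher after TAC (median 0.23), Dbh among them, while Th was lower. After quantile normalization and after cyclic loess 5 were higher. The few measured endothelial, smooth muscle and macrophage genes were split, with 1 of 2, 2 of 3 and 2 of 4 higher. Cortex genes had their highest mean levels on TAC 1 (9.65) and sham 3 (10.94), with 6.77 to 8.46 on the other TAC arrays and 6.81 to 7.87 on the other sham arrays, over 7 of 11 genes, with Cyp11b2, Nr5a1 and Mc2r below the filter. Of the 7 measured cortex genes 4 were lower after TAC (median -0.70). With TAC 1 and sham 3 left out the median of the 9 genes was -0.53 and 8 of them were lower, all but Dpysl3, while the median of all tested probe sets was 0.21.

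Other genes of the cytoskeleton and of axon growth did not lie lower as a group. Of 84 genes in 9 lists by role, 70 were measured, 43 higher and 27 lower after TAC, with a median of 0.11. Of these 0 had an adjusted p under 0.05 (0% of all genes), and at an unadjusted p under 0.05 9 were higher and 0 lower, against 6.14% higher and 1.15% lower among all genes. The groups did not overlap for 11 that were higher and 1 that was lower, against 11.6% and 2.59% of all genes. The median depended on how probe sets were chosen and was -0.02 when those of a gene were averaged.

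Several close relatives of the 10 genes gave values of the other sign. Nefh, the heavy neurofilament subunit that assembles with Nefl and Nefm, measured 8.22, 8.59 and 8.36 on the TAC arrays and 8.09, 8.12 and 8.05 on the sham arrays. All TAC arrays were above all sham arrays, by a difference of 0.30 ± 0.22 SE (limma adjusted p = 0.932). Nes, the intermediate filament nestin of the same list, differed by -0.35 ± 0.32 SE (adjusted p = 0.954), and of the list's 5 genes, which include Vim and the linker gene Dst, 3 were higher as deposited and 1 under each of the 3 other scalings. All 4 measured of 7 other stathmin and collapsin response mediator genes had higher TAC means under each scaling (median 0.25), among them Stmn3 at 0.28 ± 0.29 SE and Dpysl2 at 0.41 ± 0.45 SE (adjusted p-values 0.975 and 0.979). For the differences between these genes and Nefl, Nefm, Stmn2 and Dpysl3 no test was made.

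Among microtubule proteins, 3 of 8 other microtubule-associated protein genes were higher (median -0.09), with Map1s at 0.52 ± 0.28 SE and the plus-end protein gene Clasp2 at 0.49 ± 0.32 SE (limma adjusted p-values 0.839 and 0.899). Tubulin genes were higher at 5 of 8 (median 0.14). Tuba4a, an alpha tubulin, measured 12.16, 12.65 and 12.49 after TAC and 12.01, 11.86 and 11.32 after sham, without overlap (difference 0.70 ± 0.29 SE, adjusted p = 0.718). Tubg1, the gamma tubulin that nucleates microtubules, differed by 0.60 ± 0.37 SE (adjusted p = 0.886).

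Genes of actin, adhesion and transport held the smallest p-values of these lists, all with higher TAC means. Fscn1, which bundles actin in growth cone filopodia, measured 11.44, 11.27 and 11.21 on the TAC arrays and 10.54, 10.26 and 10.50 on the sham arrays (difference 0.87 ± 0.22 SE, limma adjusted p = 0.477). Nfasc, an adhesion protein of the axon's initial segment, measured 7.14, 7.24 and 7.32 after TAC and 6.35, 6.35 and 6.30 after sham (difference 0.90 ± 0.20 SE, adjusted p = 0.465). Sptan1, the alpha spectrin under the axonal membrane, measured 11.78, 12.35 and 11.96 after TAC and 11.09, 10.90 and 11.26 after sham (difference 0.95 ± 0.26 SE, adjusted p = 0.512). In these 3 genes every TAC array lay above every sham array, as was so for 11.6% of all genes. Genes of these lists were named for their small p-values, which favours a lack of overlap. Cfl1, which severs actin filaments, differed by 0.76 ± 0.22 SE, and the dynein adaptor gene Dctn1 by 0.78 ± 0.23 SE (adjusted p-values 0.534 and 0.553), both without overlap. The probe sets of Cfl1 and Stmn3 carry the suffix x, and those of Dctn1 and Mark1 the suffix s, with the limits given above. The growth cone and actin list was higher at 5 of 10 (median 0.05, and -0.03 after quantile normalization and -0.05 after cyclic loess), the adhesion and anchoring list at 7 of 10 (median 0.19) and the motor list at 7 of 9 (median 0.10), where Kif3c, a kinesin, differed by 0.37 ± 0.26 SE (adjusted p = 0.921).

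Receptors of guidance cues and growth factors were higher at 5 of 11 (median -0.18), with the plexin gene Plxna1 at 0.77 ± 0.31 SE and the netrin receptor gene Unc5c at 0.47 ± 0.35 SE (limma adjusted p-values 0.718 and 0.934). Kinases and phosphatases that act on tau and filaments were higher at 4 of 5 (median 0.25). Mark1, a kinase that phosphorylates microtubule-associated proteins, differed by 0.78 ± 0.26 SE without overlap (adjusted p = 0.593), and Gsk3b, a tau kinase, by 0.88 ± 0.49 SE (adjusted p = 0.854).

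**Figure D4:**
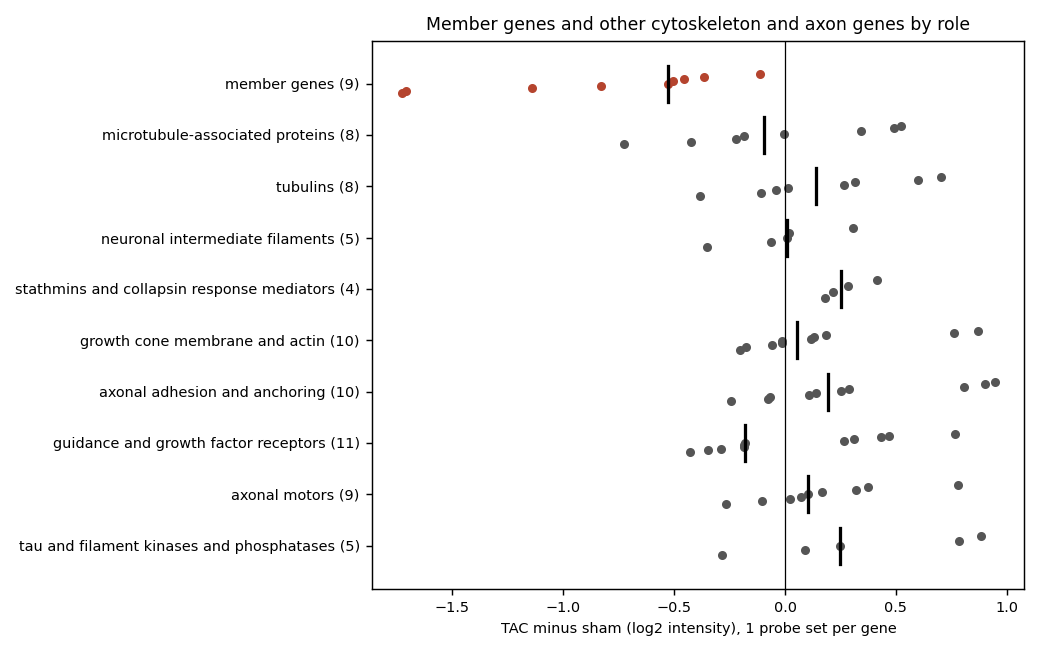
Each point is the TAC minus sham difference in log2 intensity of 1 gene (1 probe set each, number of genes in brackets), with the median of each list as a black line. The 9 measured neuronal cytoskeleton genes (red) lie between -1.73 and -0.11 with a median of -0.53, and the medians of the other lists lie between -0.18 and 0.25.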

How the data were processed

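The authors' deposited table holds 1 linear, background-corrected intensity per probe set and array (GCRMA, per the submitters' processing notes; version and options not given in the sources used here). Scanner files and scan dates were not used here. Values were taken to log2 as deposited. Of 45101 rows, 64 array controls were left out. Symbols came from GEO's platform annotation (1 symbol for 34945 probe sets, several for 932, none for 9160). Probe sets that reached log2 4 on 3 or more arrays entered lmFit and eBayes of limma 3.58.1 (R 4.3.3) with no covariate and 4 residual degrees of freedom, with p-values adjusted over all 18188 by the Benjamini-Hochberg method and a threshold of 0.05. The fit was tested on simulated data. The tested probe set with the highest mean stood for a gene and was kept under each alternative that tested it. Every probe set of the 10 genes is reported, and of each other list the 2 genes with the smallest p are named. Eno2, Elavl3, Thy1 and Syt1 were named after their values were seen. The genes and lists were chosen with earlier results of these data known. Alternatives covered scaling, filters, floor, weights, covariates and left-out arrays. The number of arrays limits the precision.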

Additional observations from a re-analysis of the deposited data

How the results depend on the processing

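The count of 0 probe sets at an adjusted p under 0.05 held under each scaling, filter, covariate and left-out array tried and was 6698 with array weights, which put 6.11 on TAC 3 and 0.143 on sham 1; 9 of the 17 probe sets passed there, all lower, and the cause was not tested. Leaving out single arrays gave 0 in each case, medians of the 9 genes from -1.04 to -0.44 and medians of the other cytoskeleton genes from 0.02 (without TAC 2 or sham 1) to 0.23 (without TAC 1); without TAC 1 and sham 3 that of the other genes was 0.37. The count at an unadjusted p under 0.05, 1263, was 2110 without a filter, 3843 with the Gapdh covariate, 8749 with array weights, 641 to 2429 with single arrays left out, 2507 without both arrays numbered 1 and 640 without TAC 1 and sham 3, the last 2 settings chosen after seeing the data. Of its calls 67% were higher after TAC, while cyclic loess gave 42.8%, quantile normalization 56.4% and centring on array medians 50.7%. Whether the replicate numbers pair the arrays was not settled, and they were used as names only. Deviations from the group means correlated at 0.76, 0.78 and -0.22 for numbers 1, 2 and 3, and TAC 3 correlated best with sham 1. With 3 arrays per group such deviations are tied to each other, so these correlations cannot decide it. With the replicate number as a block, 0 probe sets passed and 3005 had an unadjusted p under 0.05, 6 of the 17 among them. Signs turned at Mapt 1424719_a_at (0.024 with array weights, 0.054 without sham 1, 0.023 without both arrays numbered 1, and -0.20 to 0.054 with single arrays left out), Dpysl3 1438789_s_at (-0.29 with array weights, -0.0072 without sham 1, and up to 1.91 with other single arrays left out), Dpysl3 1454613_at (0.27 without TAC 1 and sham 3), Nes (0.014 with array weights) and Stmn3 (-0.049 with array weights). A mean of at least log2 6 left 4 of the 10 genes. Signal over background limits Tubb3, Prph, Nefl 1426255_at, Map2 1440699_at and Gap43, which lay near or under log2 4, and Map1b 1450397_at, which did so after TAC.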
